A study of Mus musculus with 16 samples.

Results

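Gene expression in the inguinal fat of mice fed a scoparia diet was set against that of mice fed the control diet. All animals were high-fat-diet-induced obese C57BL/6J males, housed singly. From 17 to 21 weeks of age they ate a diet (Research Diets D12492) with 60% of its calories as fat. For those 4 weeks the scoparia mice had the same diet with 1% by weight of an Artemisia scoparia extract, and the control mice had it without the extract. Total RNA from inguinal white adipose tissue (iWAT) of 4 scoparia mice and 4 control mice was labelled (400 ng each) and hybridised to Illumina bead arrays. The members are these 8 arrays, chosen by tissue and diet, of 16 in the series. The remaining 8 hold epididymal fat (eWAT) of the same animal numbers. The labels do not say whether the fat pad was taken with its lymph node. The question was which genes differ between the diets in this depot.

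Inguinal fat is a subcutaneous store of triglyceride. Its adipocytes take up fatty acids and glucose, esterify them, and release fatty acids by lipolysis, which adrenergic receptors drive and Gi-coupled receptors for lactate and ketone bodies restrain. The pad also holds stromal progenitors, macrophages and vessels, and in mice it encloses a lymph node rich in B and T cells. Artemisia scoparia is a wormwood whose extracts have been studied for effects on fat cell development and insulin action. In whole tissue, fewer cells of a type and less RNA per cell cannot be told apart.

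The arrays carried the markers of fat. Values are log2 intensities after background correction and quantile normalization, given for arrays 1 to 4 of each group. Adipoq, which encodes the hormone adiponectin, stood at 14.63, 14.69, 14.41 and 14.43 on the scoparia arrays, against 14.43, 14.63, 14.52 and 14.48 on the control arrays. Lep, which encodes leptin, stood at 15.20, 14.96, 15.01 and 14.34 on the scoparia arrays and at 14.90, 14.47, 14.75 and 14.65 on the control arrays. The groups overlapped for both, as they did for Fabp4, the adipocyte fatty acid-binding protein, and for Plin1, the coat protein of the lipid droplet. Plin1 differed by −0.71 (adjusted p = 0.196 in limma). The list of 12 adipocyte markers had a median of −0.49, beside −0.06 over all genes. Of its members 3 were lower in scoparia fat without overlap, as given below, beside 991 of all 11050 genes (8.97%). The epithelial and mesothelial marker lists averaged 4.75 to 5.07 on the scoparia arrays and 4.53 to 5.10 on the control arrays, near the floor of the scale. Between 52.7% and 56.2% of 25697 probes were detected on the scoparia arrays, against 50.5% to 52.1% on the control arrays.

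Control arrays 1 and 4 stood apart from the other 6. They correlated at 0.981 with each other over all genes tested, and at 0.912 to 0.948 with control arrays 2 and 3. Control arrays 2 and 3 correlated at 0.928 to 0.983 with the scoparia arrays, and control arrays 1 and 4 at 0.872 to 0.938. The median SD of a gene was 0.257 among the scoparia arrays and 0.380 among the control arrays. The labels give no batch that would mark these arrays, so changes are given below with and without them, and why they differ was not tested. The values without them rest on control arrays 2 and 3 alone, and that comparison holds a large shift in skeletal muscle genes, given below.

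Of 11050 genes, 972 (8.8%) passed an adjusted p of 0.05 in limma, with 487 (4.41%) higher and 485 (4.39%) lower in scoparia fat. The groups of 4 did not overlap for 1479 genes (13.4%), of which 488 (4.42%) were higher and 991 (8.97%) lower, and 699 (6.33%) both passed and did not overlap. At an unadjusted p under 0.05 there were 3626 genes (32.8%), and 5042 of the 11050 genes had a positive change. With the log2 medians of the arrays made equal, 665 genes were higher and 1231 lower. The test takes its spread from all 16 arrays. With the spread of the 8 inguinal arrays alone limma called 0 genes, the smallest adjusted p was 0.0902, and 2618 genes (23.7%) had an unadjusted p under 0.05, all 972 among them. Without control arrays 1 and 4, 4 genes (0.0362%) passed and 1416 had an unadjusted p under 0.05. All 972 kept their sign there, 684 had an unadjusted p under 0.05, and the median change was 0.64 times as large. Without control array 4 or without scoparia array 3, limma called 0 genes (2384 and 2822 at an unadjusted p under 0.05). Without control array 1 it called 5, and without control array 3 it called 3050.

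**Figure D1:**
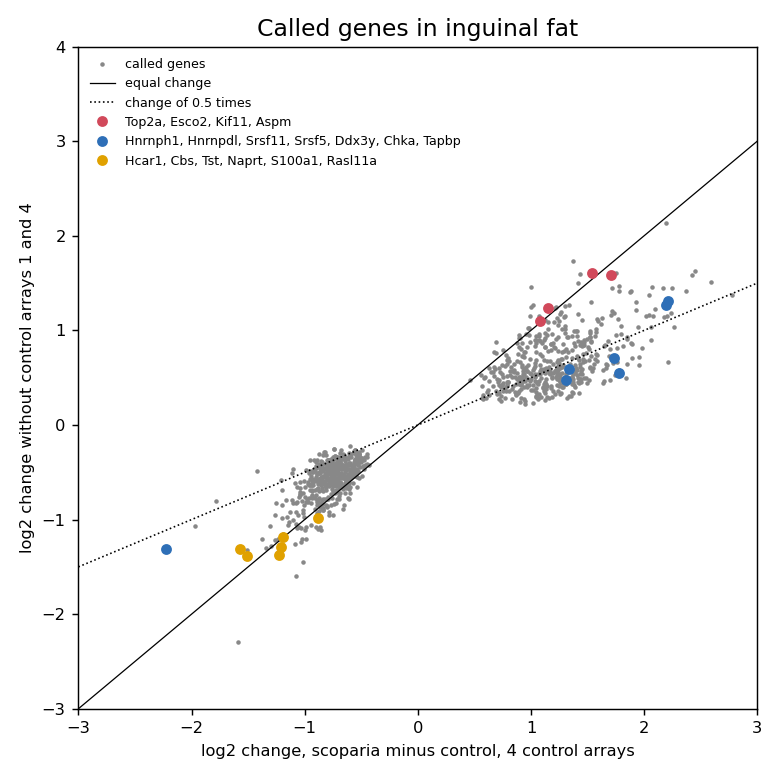
Each grey point is a gene that passed in inguinal fat, with its log2 change (scoparia minus control) over all 4 control arrays on the x axis and its change without control arrays 1 and 4 on the y axis. The solid line marks an equal change and the dotted line a change 0.5 times as large, and 259 of 972 genes shrank past the dotted line. Top2a, Esco2, Kif11 and Aspm, and Hcar1, Cbs, Tst, Naprt, S100a1 and Rasl11a lie near the solid line, whereas the blue genes lie nearer to the dotted one. Esco2, Kif11 and Aspm were detected on 0 control arrays, so their place in the plot rests on control values at background.

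The genes with the widest gap between the groups on the lower side included enzymes of sulfur and amino acid metabolism. Cbs, cystathionine beta-synthase, which starts the conversion of homocysteine to cysteine, stood at 5.03, 4.87, 4.90 and 4.95 on the scoparia arrays, against 6.77, 6.22, 6.28 and 6.75 on the control arrays. It was detected on 1 of 4 scoparia arrays and on all 4 control arrays, and its gap of 1.19 was the widest of any gene that passed (−1.57 ± 0.32, SE, adjusted p = 0.019). Tst, the mitochondrial thiosulfate sulfurtransferase that handles sulfide and cyanide, stood at 7.59, 6.97, 6.89 and 6.95 on the scoparia arrays and at 8.79, 8.61, 8.36 and 8.69 on the control arrays (−1.51 ± 0.22, adjusted p = 0.0172). For both genes the 4 control arrays all lay above every scoparia array, and without control arrays 1 and 4 the changes were −1.31 and −1.39. Suox, which oxidises sulfite to sulfate, fell by 1.17, and Gss, glutathione synthetase, fell by 0.98. For Gss, control array 2 (6.73) did not exceed scoparia array 1 (6.73). Of 13 sulfur amino acid genes tested, 0 were called higher and 4 lower, with a median of −0.61, beside 8.8% called and a median of −0.06 over all genes.

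Other genes with wide gaps on the lower side spanned transport, patterning and receptors. Gsc, the homeobox factor goosecoid, stood at 6.73, 6.59, 6.63 and 6.46 on the scoparia arrays, against 7.91, 7.83, 7.79 and 8.37 on the control arrays (−1.37 ± 0.22, adjusted p = 0.0182). Scoparia and control values were more than 1 log2 unit apart at their closest, with a gap of 1.07. En1, the homeobox factor engrailed 1, stood at 5.66, 5.47, 5.19 and 5.41 on the scoparia arrays and at 6.55, 6.18, 6.48 and 6.57 on the control arrays (−1.01 ± 0.19, adjusted p = 0.0182). Of 12 patterning factors tested, these 2 were called lower and 0 higher (16.7%, beside 8.8% of all genes). The list's median was −0.43, beside −0.06 over all genes. Twist1 and Hoxc9, a marker of subcutaneous fat, differed by −0.65 (adjusted p = 0.0623) and −0.54 (adjusted p = 0.0877).

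Amhr2, the receptor for anti-Müllerian hormone, stood at 7.12, 7.04, 6.16 and 6.31 on the scoparia arrays, against 7.95, 7.84, 8.01 and 7.99 on the control arrays (−1.30 ± 0.29, adjusted p = 0.0232). The control arrays lay close together, and the scoparia arrays fell into a higher and a lower pair. Atp6v0e2, a subunit of the vacuolar proton pump, showed the same 2 pairs, at 7.39, 7.38, 6.69 and 6.66 on the scoparia arrays, against 8.33, 8.20, 8.46 and 8.49 on the control arrays (−1.34 ± 0.34, adjusted p = 0.0312). It was the only member called among 17 proton pump subunits tested (5.88%, beside 8.8% of all genes). Kcnn1, a small-conductance calcium-activated potassium channel, fell by 1.14, the sorting nexin Snx21 by 1.11, and Rasl11a, a small GTPase of the Ras family, by 1.19. Ifitm6, of the interferon-induced transmembrane family, fell by 1.23, the small membrane protein Smim1, which carries a red cell blood group antigen in humans, by 1.14, and Spsb2, a ubiquitin ligase adaptor, by 0.86. For the 5 genes Kcnn1, Rasl11a, Ifitm6, Smim1 and Spsb2 the change without control arrays 1 and 4 was between −1.20 and −0.84, and for Snx21 it was −0.79.

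By the smallest p, the lower genes added S100a1, a calcium-binding protein. It stood at 9.82, 9.45, 9.09 and 9.09 on the scoparia arrays, against 10.30, 10.60, 10.70 and 10.68 on the control arrays (−1.21 ± 0.21, adjusted p = 0.0182). Naprt, which makes NAD from nicotinic acid, stood at 8.86, 8.70, 8.44 and 8.56 on the scoparia arrays and at 9.29, 9.67, 9.57 and 9.56 on the control arrays (−0.89 ± 0.16, adjusted p = 0.0182). For both genes the change was larger without control arrays 1 and 4 (−1.29 and −0.98), and all control arrays exceeded all scoparia arrays. Bola1, a mitochondrial iron-sulfur cluster factor, fell by 0.96, Oxld1 by 1.06, the adaptor Efs by 1.15, Hcfc1r1 by 0.87 and Clec16a, a regulator of mitophagy, by 0.72. Clec16a had the narrowest groups, at 6.02 to 6.11 on the scoparia arrays and 6.73 to 6.87 on the control arrays.

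On the higher side, the widest gap belonged to Hif1a, the oxygen-regulated transcription factor. It stood at 8.69, 8.80, 9.05 and 8.89 on the scoparia arrays, against 7.36, 7.82, 7.91 and 6.75 on the control arrays (1.40 ± 0.29, 2.65-fold, adjusted p = 0.019). Control arrays 1 and 4 were the lowest, and without them the change was 1.00. Slc15a2, a proton-coupled peptide transporter, stood at 7.49, 6.34, 7.61 and 8.25 on the scoparia arrays and at 5.20, 5.02, 5.55 and 5.14 on the control arrays, where 1 of 4 detected it (2.19 ± 0.46, adjusted p = 0.0203). The control values lay near the floor of the scale, so the size of this change rests on values mostly not above background.

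F2r, the thrombin receptor PAR1, stood at 11.47, 11.56, 11.48 and 11.20 on the scoparia arrays, against 9.91, 10.45, 10.15 and 10.29 on the control arrays (1.23 ± 0.21, 2.34-fold, adjusted p = 0.0182). Tfrc, the transferrin receptor of iron uptake, stood at 10.08, 9.81, 9.76 and 9.88 on the scoparia arrays and at 8.25, 8.69, 9.05 and 8.94 on the control arrays (1.15 ± 0.21, adjusted p = 0.0182), and its other probe rose by 1.29. Jak1, the kinase of interferon and cytokine receptors, stood at 8.91, 9.16, 9.25 and 9.42 on the scoparia arrays and at 8.13, 8.24, 8.24 and 7.86 on the control arrays (1.07 ± 0.22, adjusted p = 0.019). None of these 3 genes overlapped between the diets, and without control arrays 1 and 4 the changes were 1.13, 1.01 and 0.94. Fam122b rose by 1.42 (1.5 without these arrays), and Sgms1, sphingomyelin synthase 1, by 1.45 (1.11 without them). Rhbdl2, a rhomboid protease that cuts membrane proteins, rose by 2.07 (1.46 without them). Sgms1 and Tst had the smallest adjusted p of all genes, 0.0172.

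**Figure D2:**
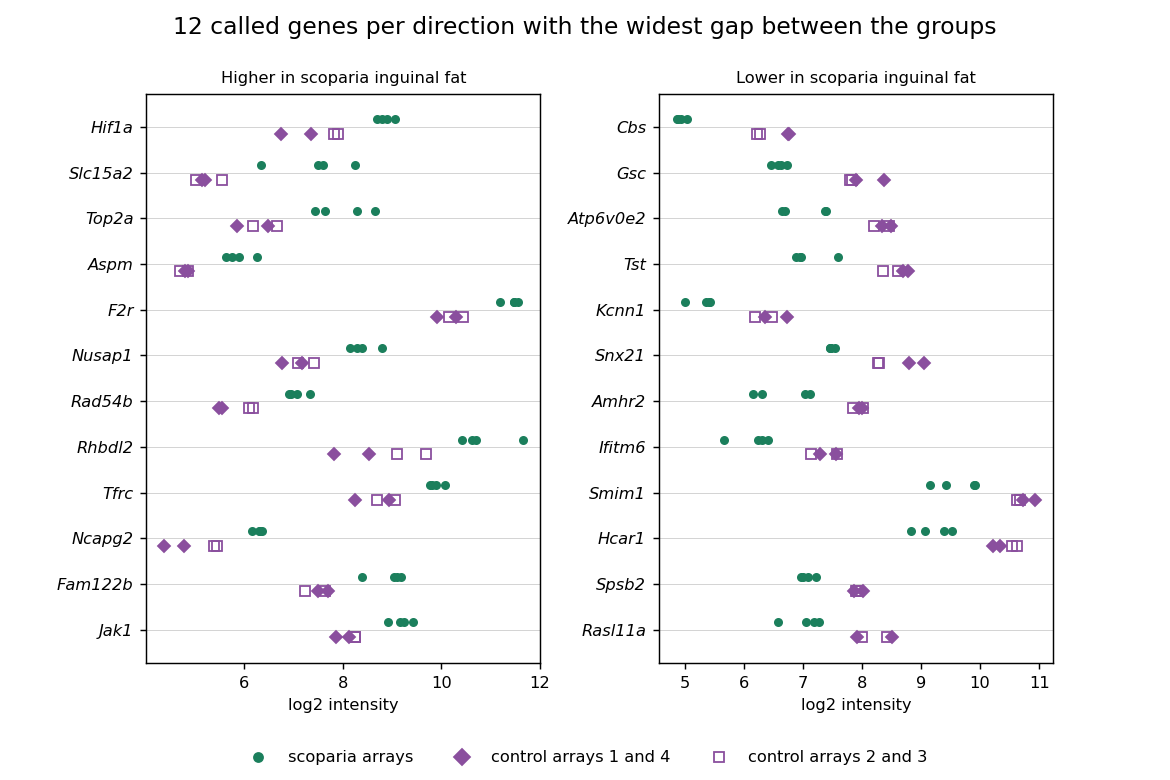
Each row is a gene and each symbol an array, with the log2 intensity on the x axis. Green circles are the 4 scoparia arrays, filled purple diamonds control arrays 1 and 4, and open purple squares control arrays 2 and 3. In every row the green symbols lie on one side of the purple ones, as the choice of the genes requires. In Amhr2 and Spsb2 all 4 control arrays lie together, whereas in Hif1a, Ncapg2 and Rhbdl2 control arrays 1 and 4 lie farther out. The control values of Slc15a2 and Aspm lie near the floor of the scale.

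Genes of cell division recurred among the higher genes that the naming rules gave, a grouping made after their values were seen. Top2a, the topoisomerase that untangles replicated chromosomes, stood at 7.44, 7.63, 8.28 and 8.65 on the scoparia arrays, against 6.49, 6.67, 6.17 and 5.85 on the control arrays (1.71 ± 0.27, 3.27-fold, adjusted p = 0.0182). All scoparia arrays were higher, arrays 3 and 4 most, and the change without control arrays 1 and 4 was 1.58. Promoters are shown for 3 of these genes, since the CCAAT box is a known element of promoters active in dividing cells. They are the 250 bases upstream of the RefSeq start (GRCm38.p6), with each CCAAT, on either strand, in capitals. Top2a lies at chr11:99024190-99024439 (minus strand), Kif11 at chr19:37376132-37376381 (plus strand) and Kif23 at chr9:61946800-61947049 (minus strand).
Top2a: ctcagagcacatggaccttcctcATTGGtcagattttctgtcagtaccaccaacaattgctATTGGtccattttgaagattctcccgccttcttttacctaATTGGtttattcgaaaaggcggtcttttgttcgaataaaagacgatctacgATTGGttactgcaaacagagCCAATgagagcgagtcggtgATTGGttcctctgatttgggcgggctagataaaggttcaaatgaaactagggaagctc
Kif11: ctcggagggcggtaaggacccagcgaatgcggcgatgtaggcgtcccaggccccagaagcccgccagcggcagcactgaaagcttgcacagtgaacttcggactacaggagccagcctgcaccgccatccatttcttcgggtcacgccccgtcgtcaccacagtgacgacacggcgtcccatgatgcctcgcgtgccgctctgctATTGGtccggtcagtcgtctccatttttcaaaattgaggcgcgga
Kif23: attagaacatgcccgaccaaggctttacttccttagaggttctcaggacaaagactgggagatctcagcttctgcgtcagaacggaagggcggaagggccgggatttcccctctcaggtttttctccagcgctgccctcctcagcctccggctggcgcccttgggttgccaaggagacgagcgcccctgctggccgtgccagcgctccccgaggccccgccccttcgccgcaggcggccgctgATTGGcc
The Top2a window held 6 such boxes and the Kif11 and Kif23 windows 1 each. Of the 10 division genes named here, 8 had a promoter entry and 5 of these held the motif, against 34.5% of 27025 promoters of the same length. A match describes these letters and is not evidence of binding.

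Kif11, the motor that separates spindle poles, stood at 5.74, 5.54, 5.96 and 6.52 on the scoparia arrays and was detected on 0 control arrays, at least 1.71-fold higher in scoparia fat (adjusted p = 0.0182). A bound of this kind sets the scoparia mean against, per control array, the larger of the probe's value and the lowest detected value. Esco2, which establishes cohesion between sister chromatids, stood at 5.72, 6.42, 6.20 and 6.73 on the scoparia arrays and was likewise detected on 0 control arrays (at least 2.15-fold higher, adjusted p = 0.0182). Aspm, a spindle pole protein, was detected on 4 scoparia arrays and 0 control arrays (at least 1.64-fold higher, adjusted p = 0.0396).

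Kif23, a motor of cytokinesis, stood at 6.93, 7.21, 7.26 and 7.66 on the scoparia arrays, against 6.13, 6.40, 6.21 and 5.58 on the control arrays (1.19 ± 0.21, adjusted p = 0.0182). Nusap1, which bundles spindle microtubules, stood at 8.15, 8.39, 8.30 and 8.80 on the scoparia arrays and at 6.76, 7.09, 7.42 and 7.17 on the control arrays (1.30 ± 0.26, adjusted p = 0.019). Neither gene overlapped between the diets, as the rules that named them required. Dbf4, which activates the kinase that fires replication origins, rose by 1.40, the condensin subunit Ncapg2 by 1.28 (0.26 at its other probe), and the recombination factor Rad54b by 1.24. Rrm2, the regulated subunit of ribonucleotide reductase, rose by 0.80, and its other probe differed by 0.16. Of the predefined list of cell cycle and replication genes, 2 of 18 tested members (Top2a and Rrm2) were called (11.1%, beside 8.8% of all genes). A positive change was found for 15 of the 18, beside 5042 of all 11050 genes. An unadjusted p under 0.05 was found for 4 of the 18, beside 32.8% of all genes. Without control arrays 1 and 4 it was found for 6, beside 1416 of all 11050 genes. The list's median was 0.28, or 0.61 without control arrays 1 and 4. Its mean stood at 7.13, 7.37, 7.55 and 7.77 on the scoparia arrays and at 7.48, 7.06, 6.58 and 7.28 on the control arrays. These ranges overlapped, with control arrays 1 and 4 inside the scoparia range. Mcm6 and Mcm4, subunits of the replicative helicase, differed by 0.72 (adjusted p = 0.123) and 0.95 (adjusted p = 0.0678).

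**Figure D3:**
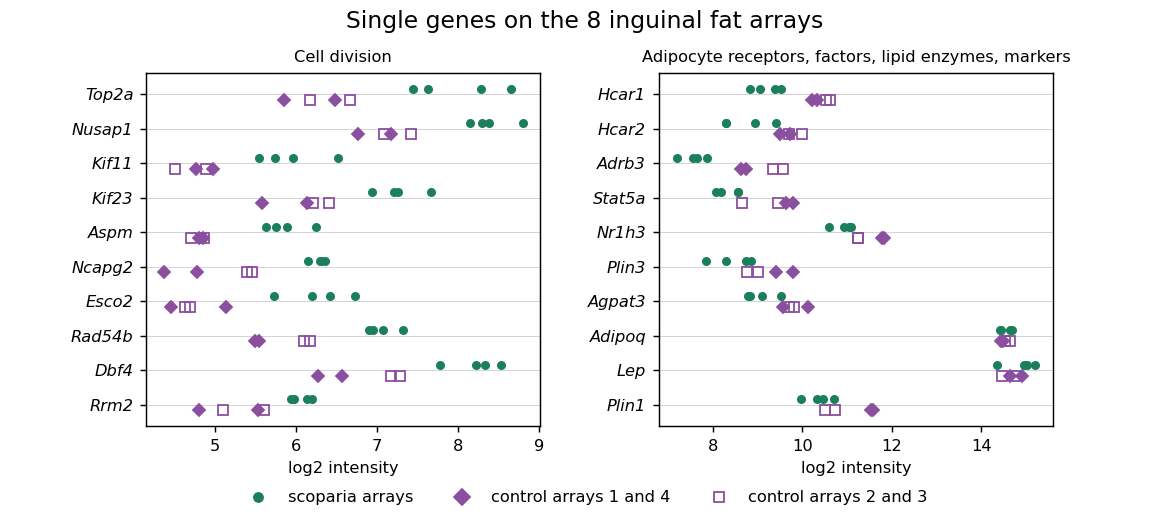
Log2 intensity of single genes on the 8 inguinal arrays, with green circles for scoparia arrays, filled purple diamonds for control arrays 1 and 4 and open purple squares for control arrays 2 and 3. The 10 division genes on the left lie higher on all scoparia arrays than on any control array. The rules that named most of them required this separation, and the group was made after its values were seen. On the right, Hcar1, Hcar2 and Adrb3 lie lower on all scoparia arrays, whereas Adipoq and Lep overlap.

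Among the receptors of lipolysis, Hcar1 and Hcar2 were lower in scoparia fat. Hcar1, the receptor through which lactate restrains lipolysis, stood at 9.52, 9.07, 8.83 and 9.38 on the scoparia arrays, against 10.22, 10.54, 10.62 and 10.33 on the control arrays (−1.23 ± 0.29, 2.34-fold lower, adjusted p = 0.0262). Hcar2, the neighbouring receptor for beta-hydroxybutyrate and nicotinic acid, stood at 9.42, 8.95, 8.30 and 8.30 on the scoparia arrays and at 9.73, 9.99, 9.70 and 9.52 on the control arrays (−0.995 ± 0.25, adjusted p = 0.0319). All control arrays exceeded all scoparia arrays for both genes, by a gap of 0.70 for Hcar1 and 0.10 for Hcar2. Control arrays 2 and 3 lay at the upper end for Hcar1, and the changes without control arrays 1 and 4 were −1.38 and −1.11. Adrb3, the beta-3 adrenergic receptor that drives lipolysis, had no overlap either, at 7.87, 7.65, 7.20 and 7.57 on the scoparia arrays and 8.74, 9.35, 9.56 and 8.64 on the control arrays, and it did not pass (−1.498 ± 0.49, adjusted p = 0.0588). Npr3, which clears natriuretic peptides, differed by 1.40 ± 0.44 with overlapping groups (adjusted p = 0.0546). In all, 2 of 10 receptors that drive or restrain lipolysis were called, both lower, and the list's median was −0.19, beside 8.8% called and a median of −0.06 over all genes.

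Of 12 adipogenic transcription factors tested, 0 were called higher and 2 lower (16.7%, beside 8.8% of all genes), with a median of −0.44 beside −0.06 over all genes. Stat5a, a transducer of growth hormone and prolactin signals that promotes fat cell development, stood at 8.56, 8.18, 8.08 and 8.58 on the scoparia arrays, against 9.80, 9.46, 8.65 and 9.63 on the control arrays (−1.04 ± 0.27, adjusted p = 0.0323). Control array 3 came within 0.07 of the scoparia arrays, and the change without control arrays 1 and 4 was −0.71. Nr1h3, the oxysterol receptor LXR-alpha, stood at 11.08, 10.93, 11.04 and 10.61 on the scoparia arrays and at 11.79, 11.24, 11.25 and 11.82 on the control arrays (−0.61 ± 0.17, adjusted p = 0.0395), and the change fell to −0.33 without control arrays 1 and 4. Cebpa, a master factor of adipocytes, and Rxra, the shared partner of nuclear receptors, differed by −1.06 (adjusted p = 0.0524) and −0.99 (adjusted p = 0.0555).

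Enzymes and secreted proteins of adipocytes mostly did not pass. Agpat3, an acyltransferase of phospholipid and triglyceride synthesis, fell by 0.75 (adjusted p = 0.0319), and the lipid droplet protein Plin3 by 0.82 (adjusted p = 0.049, −0.45 without control arrays 1 and 4). They were the sole members called among 18 genes of triglyceride synthesis and 15 genes of lipases and droplet proteins. These shares were 5.56% and 6.67%, beside 8.8% of all genes. Of 12 genes of fatty acid synthesis limma called 0 (5 at an unadjusted p under 0.05, beside 32.8% of all genes). Fasn, fatty acid synthase, differed by −1.14 (adjusted p = 0.0733). Thrsp, which responds to thyroid hormone and carbohydrate, stood at 10.42, 10.02, 10.05 and 9.91 on the scoparia arrays, against 10.79, 10.91, 10.96 and 10.85 on the control arrays, without overlap (−0.78, adjusted p = 0.058). Agt, angiotensinogen, was detected on 0 scoparia arrays and on 4 control arrays, at 5.35, 6.88, 6.47 and 6.33 there, at least 2.43-fold lower in scoparia fat (adjusted p = 0.0577). The 12 adipocyte markers had a median of −0.49 with 0 called by limma (2 at an unadjusted p under 0.05, beside 32.8% of all genes). A positive change was found for 4 of them, beside 5042 of all 11050 genes. Adrb3 and the lipases Lipe (−0.96, adjusted p = 0.153) and Pnpla2 (−0.46, adjusted p = 0.172) were lower without overlap, beside 8.97% of all genes. Slc2a4, the insulin-regulated glucose transporter, differed by −0.90 (adjusted p = 0.141).

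The insulin signalling list (18 genes, median 0.14), the thermogenic list (7 genes, median −0.60) and the branched-chain amino acid list (18 genes, median −0.32) held 0 genes called by limma, with 5, 2 and 9 at an unadjusted p under 0.05. The same count of 0 held for 23 respiratory chain genes (median −0.34) and for 28 genes of the tricarboxylic acid cycle and fatty acid oxidation (median −0.22), with 6 and 5 at an unadjusted p under 0.05. The share of all genes to set beside these 5 counts was 32.8%, and the median change over all genes was −0.06. Of the thermogenic genes, Cox7a1, a heart and brown fat subunit of cytochrome c oxidase, came nearest to the threshold (−0.98, adjusted p = 0.0597). Choline metabolism moved at single genes. Chka, choline kinase alpha, stood at 10.68, 10.97, 11.23 and 12.12 on the scoparia arrays and at 8.15, 9.62, 10.33 and 8.11 on the control arrays (2.20 ± 0.44, adjusted p = 0.019). Control arrays 1 and 4 were lowest by far, the change without them was 1.27, and the other probe rose by 0.45. Slc44a1, a choline transporter, fell by 0.57 at the main probe and by 0.61 and 0.56 at the others (adjusted p = 0.0447).

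Targets of xenobiotic sensors were examined because the extract is a plant mixture. Cyp1b1, a dioxin-inducible cytochrome P450 that stromal cells also express, stood at 9.84, 9.87, 10.25 and 11.00 on the scoparia arrays, against 7.82, 9.42, 9.30 and 8.28 on the control arrays (1.53 ± 0.42, 2.90-fold, adjusted p = 0.0381). The groups did not overlap, control arrays 1 and 4 were lowest, and without them the change was 0.88. Its promoter is shown because the gene is a standard target of the aryl hydrocarbon receptor, whose core site GCGTG is in capitals on either strand. The window covers the 250 bases upstream of the RefSeq start at chr17:79715062-79715311 (GRCm38.p6, minus strand).
Cyp1b1: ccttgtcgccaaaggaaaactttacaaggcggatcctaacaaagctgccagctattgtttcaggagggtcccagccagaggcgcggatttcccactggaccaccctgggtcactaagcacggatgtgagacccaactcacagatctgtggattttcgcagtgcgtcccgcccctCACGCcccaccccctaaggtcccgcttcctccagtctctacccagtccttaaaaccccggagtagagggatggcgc
The window held 1 core, and 28.2% of 27025 promoters held at least 1. Of 6 genes of the receptor's pathway tested, Cyp1b1 was the 1 called (16.7%, beside 8.8% of all genes), and the median was 0.35. Tiparp, the receptor's feedback repressor, was detected on 3 scoparia arrays and 0 control arrays and did not pass (at least 1.04-fold higher, adjusted p = 0.0521). Ugt1a6a, a glucuronosyltransferase, and Aldh3a1, an aldehyde dehydrogenase, both targets of the receptor, differed by −0.43 (adjusted p = 0.343) and 0.49 (adjusted p = 0.268). In the Nrf2 list, 1 of 13 genes was called (7.69%, beside 8.8% of all genes). It was Abcc3, an exporter of conjugates (−0.74, adjusted p = 0.0499, and −0.26 without control arrays 1 and 4).

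Lymphoid genes were higher on most scoparia arrays, and the list means spread widely within both groups. The mean of 10 B cell genes stood at 7.18, 8.45, 9.50 and 10.4 on the scoparia arrays, against 5.44, 8.87, 7.17 and 7.06 on the control arrays. The mean of 9 lymph node genes stood at 7.58, 8.66, 9.52 and 10.7 on the scoparia arrays and at 5.70, 9.38, 7.09 and 7.80 on the control arrays. In both lists control array 1 was lowest, scoparia array 4 highest, and control array 2 lay among the scoparia arrays. All 10 B cell genes and all 9 lymph node genes had a positive change (medians 1.85 and 1.46). Of either list limma called 0 (10 and 5 at an unadjusted p under 0.05, beside 32.8% of all genes). Ccl21a, the chemokine that guides lymphocytes into lymph nodes, differed by 2.48 ± 0.81 (adjusted p = 0.0588), and Glycam1, a ligand of high endothelial venules, by 2.44 ± 0.85 (adjusted p = 0.0688). Blk, a kinase of B cells, differed by 2.17 (adjusted p = 0.063).

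Of 12 T and NK cell genes, 12 had a positive change and 2 were called (16.7%, beside 8.8% of all genes). Prf1, perforin of cytotoxic cells, stood at 8.68, 9.05, 9.10 and 10.30 on the scoparia arrays, against 7.10, 7.90, 8.43 and 7.35 on the control arrays (1.59 ± 0.34, adjusted p = 0.0209). Klrd1, the NK receptor CD94, stood at 7.48, 8.48, 9.19 and 10.15 on the scoparia arrays and at 6.98, 8.34, 6.98 and 7.36 on the control arrays (1.41 ± 0.42, adjusted p = 0.049). Prf1 did not overlap between the diets, whereas for Klrd1 control array 2 exceeded scoparia array 1. Of the 7 Gimap genes, GTPases of lymphocyte survival, 3 were called, all higher (42.9%, beside 8.8% of all genes). Gimap8 stood at 9.46, 9.79, 10.44 and 11.37 on the scoparia arrays and at 6.62, 9.03, 9.13 and 7.32 on the control arrays (2.24, or 1.18 without control arrays 1 and 4). Gimap5 rose by 1.75 (0.87 at its other probe) and Gimap4 by 0.67. In the dendritic list (5 genes) Siglech, a lectin that marks plasmacytoid cells, was the sole call (20%, beside 8.8% of all genes). Siglech was higher by 2.27 with a gap of 0.05, by 1.04 without control arrays 1 and 4, and by 0.81 at its other probe.

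Genes of antigen presentation mostly did not pass. All 10 MHC class II genes had a positive change (median 0.39, or −0.06 with equal medians). Of these limma called 0 (2 at an unadjusted p under 0.05, beside 32.8% of all genes). H2-Oa and H2-Ob, the class II chaperones of B cells, differed by 1.63 and 1.65, and their highest values were on scoparia array 4. Tapbp, tapasin of the class I loading complex, was the sole class I gene called of 13 (7.69%, beside 8.8% of all genes), and the class I median was −0.10. It stood at 8.17, 7.28, 7.28 and 7.02 on the scoparia arrays, against 10.53, 9.05, 8.45 and 10.60 on the control arrays. Its change of −2.22 ± 0.40 (adjusted p = 0.0182) was −1.31 without control arrays 1 and 4, and the other probe differed by −0.54. On the arrays where the lymphoid means were highest, the adipocyte mean was lowest within the scoparia group (11.2 on array 4, against 11.9 on array 1). Skeletal muscle genes had their highest mean, 11.4, on control array 3, against 6.22 to 9.35 on the scoparia arrays and 6.32 to 8.76 on the other control arrays. Without control arrays 1 and 4 the median of the 12 muscle genes was −2.25, and 9 had an unadjusted p under 0.05. With all arrays these values were −0.37 and 0. The part of lymph node or muscle tissue in any other result was not tested.

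**Figure D4:**
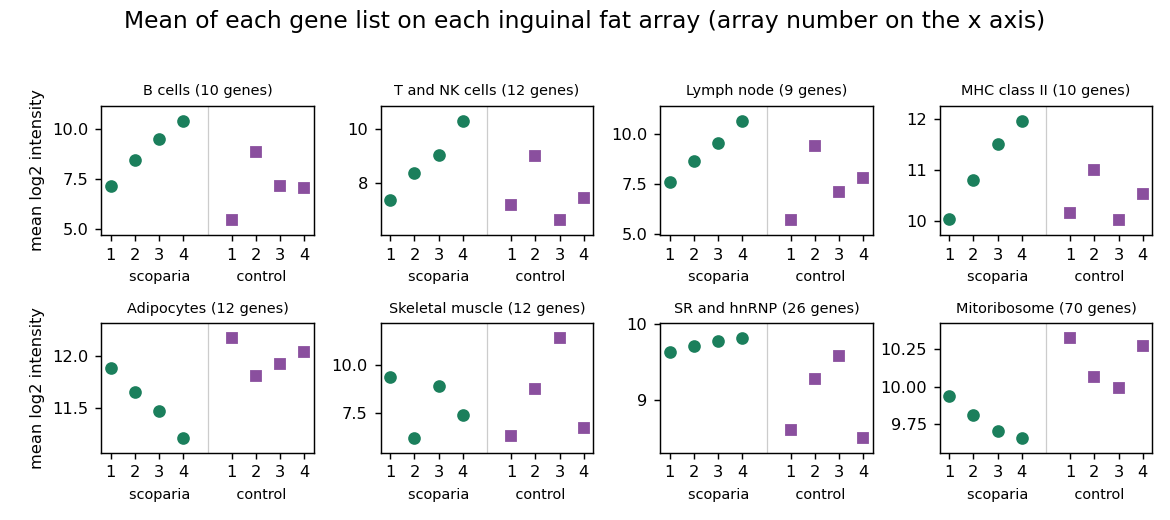
Mean log2 intensity of 8 gene lists on each inguinal array, scoparia arrays 1 to 4 on the left of each panel and control arrays 1 to 4 on the right. The B cell, T and NK cell and lymph node panels span several log2 units within each diet. The SR and hnRNP panel separates control arrays 1 and 4 (8.60 and 8.49) from all others (9.27 to 9.81), and in the mitochondrial ribosome panel (Mitoribosome) all control arrays lie above the scoparia arrays.

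Macrophage genes moved in both directions, with 2 of 13 called higher and 1 lower (23.1% called, beside 8.8% of all genes). Timd4, a phosphatidylserine receptor of resident macrophages, stood at 7.93, 8.49, 9.15 and 10.10 on the scoparia arrays, against 5.42, 8.35, 7.15 and 6.58 on the control arrays (2.04 ± 0.49, adjusted p = 0.0281). Mertk, a receptor for the uptake of dead cells, stood at 8.64, 8.83, 9.38 and 9.03 on the scoparia arrays and at 7.74, 8.14, 8.45 and 6.99 on the control arrays (1.14 ± 0.27, adjusted p = 0.0269). Fcrls, an Fc receptor-like protein, stood at 8.05, 8.31, 8.20 and 7.32 on the scoparia arrays and at 9.55, 8.94, 8.91 and 9.53 on the control arrays (−1.26, adjusted p = 0.0182). The groups were apart for Mertk and Fcrls, and for Timd4 control array 2 exceeded scoparia array 1. Timd4 is also made by lymph node macrophages. Within the scoparia group it rose from array 1 to array 4, as the means of the B cell, lymph node, dendritic and mast cell lists did. A link between them was not tested. Acp5, the tartrate-resistant acid phosphatase, fell by 0.85 as the sole member called of 12 lipid-associated macrophage genes (8.33%, near the 8.8% of all genes).

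Prtn3, the neutrophil protease proteinase 3, stood at 4.57, 5.10, 4.95 and 5.66 on the scoparia arrays, of which 2 detected it, and at 5.86, 7.92, 6.81 and 6.03 on the control arrays (−1.59 ± 0.37, adjusted p = 0.0262). Without control arrays 1 and 4 its change was −2.30, and it was 1 of the 4 genes that passed there (adjusted p = 0.0481). The others, named after their values were seen, were Chrna5, a nicotinic receptor subunit (−1.44), Ddit4, a stress-induced inhibitor of mTORC1 (1.46), and Adam3 (−1.44). Adam3 did not pass with all arrays (−0.34), and the other 3 did. Of 14 interferon-stimulated genes, 3 were called, all higher (21.4%, beside 8.8% of all genes). Ifit2 rose by 1.08 (0.57 without control arrays 1 and 4), the RNA sensor Ddx58 by 0.68, and Mx1, detected on 3 scoparia arrays and 0 control arrays, was at least 1.12-fold higher. Bst2, another gene of this list, differed by −0.59 (adjusted p = 0.0557).

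Vessel and stromal genes showed single calls. F8, coagulation factor VIII, which endothelium makes, stood at 7.89, 7.65, 8.55 and 9.998 on the scoparia arrays, against 4.73, 6.76, 7.03 and 5.78 on the control arrays. It rose by 2.45 (1.63 without control arrays 1 and 4) and by 2.09 and 2.04 at its other probes. The 15 endothelial genes had a median of only 0.09, with 1 called (6.67%, beside 8.8% of all genes). Vcam1, an adhesion molecule of endothelium and stroma, stood at 10.30, 10.91, 11.44 and 12 on the scoparia arrays and at 9.12, 10.80, 9.78 and 9.43 on the control arrays (1.38, adjusted p = 0.0443). Its groups overlapped at control array 2, the control array with the highest lymph node mean, and a link to that mean was not tested. Lyve1, a hyaluronan receptor of lymphatic vessels and macrophages, rose by 1.22 (0.58 without control arrays 1 and 4), Cd55, a marker of stromal progenitors, by 0.70, and Klf6, an immediate early zinc finger factor, by 1.17. Each was the sole call of its list, of 4 lymphatic (25%), 10 progenitor (10%) and 17 immediate early genes (5.88%), beside 8.8% of all genes. A positive change was found for 2, 5 and 3 members of these lists, and the immediate early median was −0.24. Dpp4, another progenitor marker, differed by 1.53 with overlapping groups (adjusted p = 0.0702).

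Of 26 SR and hnRNP proteins, which bind pre-mRNA and direct splicing, 11 (42.3%, beside 8.8% of all genes) were called higher and 0 lower, with a median of 0.63, or 0.33 without control arrays 1 and 4. Hnrnph1 stood at 11.19, 11.29, 11.70 and 12.04 on the scoparia arrays, against 8.84, 10.39, 11.31 and 8.76 on the control arrays (1.73 ± 0.42, adjusted p = 0.0278). Srsf11 stood at 8.99, 8.93, 9.09 and 9.03 on the scoparia arrays and at 6.70, 8.23, 8.61 and 7.19 on the control arrays (1.33 ± 0.30, adjusted p = 0.0247). In both genes control arrays 1 and 4 were the lowest by at least 1 log2 unit, and the changes without them were 0.71 and 0.59. Hnrnpdl and Srsf5 rose by 1.78 and 1.31, or 0.55 and 0.47 without those arrays. The 4 other probes of Hnrnph1 differed by 0.83 to 1.75. Hnrnpk is less certain, since 1 of its other probes differed by −0.25.

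Ddx3y, a Y-linked RNA helicase, followed the same order. It stood at 11.49, 11.40, 11.46 and 12.06 on the scoparia arrays, against 7.99, 9.55, 11.04 and 8.99 on the control arrays (2.21 ± 0.43, or 1.31 without control arrays 1 and 4, and 0.61 at its other probes). Eif2s3y, a Y-linked translation factor, stood at 11.16, 10.86, 11.04 and 10.80 on the scoparia arrays and at 8.30, 10.07, 11.11 and 9.02 on the control arrays (1.34, adjusted p = 0.0545). All mice were male, and control arrays 1 and 4 were lowest for both genes. Snhg11, the 1 RNA tested from a list of 7 nuclear-retained RNAs, stood at 9.54, 9.19, 9.37 and 9.48 on the scoparia arrays, against 6.85, 9.06, 9.93 and 7.14 on the control arrays (1.15, adjusted p = 0.172, and −0.10 without control arrays 1 and 4).

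Of 176 zinc finger genes named Zfp, 15 were called higher and 8 lower (13.1%, beside 8.8% of all genes). Their median was 0.14, or −0.03 without control arrays 1 and 4. Zfp292 rose by 2.02, Zfp318 by 1.80 and Zfp157 by 1.41, while Zfp738 fell by 0.90. Of 35 ubiquitin-specific proteases 3 (8.57%, near the 8.8% of all genes) were called, all higher, namely Usp53 (1.22), Usp7 (1.08) and Usp15 (0.80). Mitochondrial ribosomal proteins went the other way, with 0 of 70 called higher and 13 lower (18.6%, beside 4.39% of all genes called lower). Their median was −0.38, or −0.24 without control arrays 1 and 4. Mrpl14 stood at 10.38, 10.12, 10.03 and 9.98 on the scoparia arrays, against 11.10, 10.57, 10.67 and 11.15 on the control arrays (−0.75 ± 0.16, adjusted p = 0.0196), and Mrps11 fell by 0.89. No scoparia array reached a control array for either, and control arrays 1 and 4 were highest. Cytosolic ribosomal proteins (53 genes, median 0.11) and proteasome subunits (34 genes, median −0.19) had 0 called by limma. At an unadjusted p under 0.05 there were 2 and 5, beside 32.8% of all genes. Of 214 solute carriers 5 were called higher and 14 lower (8.88%, near the 8.8% of all genes), among them Slc22a18 (−1.13) and the folate carrier Slc19a1 (−0.92).

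The called genes differed in the length of the gene, which the test did not use. With RefSeq lengths for 95.1% to 96.1% of each set, the median gene spanned 41.5 kb among genes called higher and 11.6 kb among genes called lower, against 21.8 kb over all genes tested. With the genes ordered by length and cut into 5 equal bins, the shortest (up to 7.31 kb) held 28 genes called higher and 158 called lower, and the longest (from 62.1 kb) held 153 called higher and 48 called lower. The median change was −0.24 in the shortest bin and 0.15 in the longest. Without control arrays 1 and 4 these medians were −0.07 and 0.04, and in eWAT they were 0.02 and 0.04. The span includes introns, so it is not the length of the RNA that the probes bind.

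On control arrays 1 and 4 the shortest genes lay 0.24 and 0.30 above the mean of the 8 arrays (medians) and the longest lay −0.14 and −0.26 from it. On the scoparia arrays the shortest genes lay between −0.14 and −0.11 from that mean and the longest between −0.01 and 0.14. Control array 3 ran as the scoparia arrays did (−0.08 and 0.09), and control array 2 hardly changed with length (0.03 and 0.02). For 744 of 972 called genes (76.5%), control arrays 1 and 4 both lay farther from the scoparia side than control arrays 2 and 3 did, against 58.3% of all genes tested. The part of RNA quality in this was not tested, since the sources used here give no RNA integrity values per sample.

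**Figure D5:**
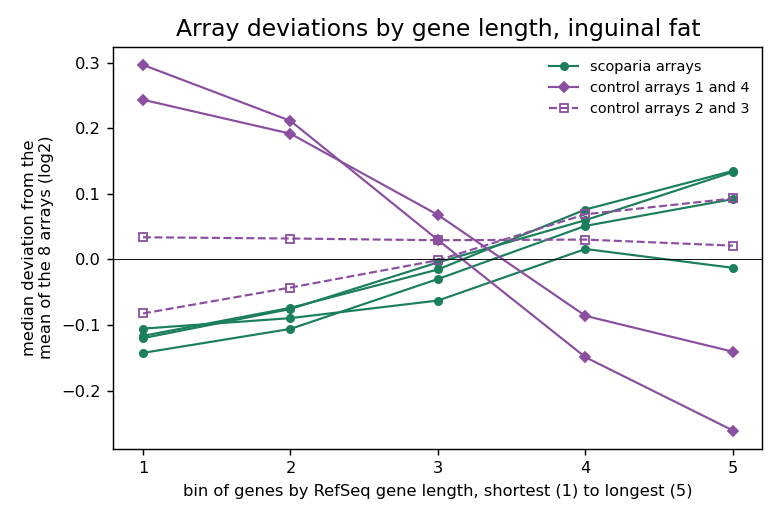
Genes are split into 5 equal bins by RefSeq gene length on the x axis, and the y axis is the median deviation of an array from the mean of the 8 inguinal arrays, in log2 units. Each line is an array, green for scoparia, filled purple diamonds for control arrays 1 and 4 and open purple squares for control arrays 2 and 3. Control arrays 1 and 4 run from above 0 for short genes to below 0 for long ones, and the other 6 arrays do not.

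In epididymal fat of the same animal numbers, limma called 0 genes for the same diet contrast, with 654 at an unadjusted p under 0.05. Of the 972 inguinal genes, 553 had the same sign there, and their median change in the inguinal direction was 0.04. The difference between the depots was tested as an interaction and passed for 6 genes (0.0543%), 5 of them among the 972. With the animal as a random block it passed for 48 genes. Gsc was lower in scoparia inguinal fat and differed by 0.52 in epididymal fat, a difference of −1.90 ± 0.30 (adjusted p = 0.0408). The other 5 were higher in scoparia inguinal fat, though Reep3 missed the threshold there (0.82, adjusted p = 0.0501). In epididymal fat their changes were −1.25 to −0.82, and 0 passed in limma (adjusted p = 0.22 to 0.41). These genes, named after their values were seen, were Bbx (2.02), Mindy2 (2.23), Larp4b (1.94), Reep3 (2.07) and a transcript with a predicted name (1.58), as differences between the depots. For most called genes the inguinal change was therefore not shown to differ from that in epididymal fat.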

How the data were processed

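Per the labels' protocols, RNA was extracted with TriReagent, cleaned on columns with DNase and labelled with biotin. GenomeStudio and limma 3.18.13 appear in the submitters' processing notes, without a stated role. The authors deposited a scanner table that holds, per the file headers, 1 average signal intensity (linear, lowest 92.2, background not subtracted) and 1 detection p-value per probe and array, over 25697 probes. The authors' deposited normalized intensities were used as an alternative.

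The scanner intensities went through neqc (limma 3.58.1, R 4.3.3, offset 16), which corrects background, equalises quantiles and takes log2. A probe was kept if its detection p was below 0.05 on 4 or more of the 16 arrays (15052 probes), and each gene was represented by its brightest kept probe (11050 genes). Array names were updated through RefSeq tables (GRCm38.p6), by symbol for 20736 probes and by synonym for 3872, and the rest kept their own. limma's lmFit and eBayes fitted 4 group means over all 16 arrays, with Benjamini-Hochberg adjustment over all genes and a threshold of 0.05. Log2 changes are scoparia minus control, ± SE, with n = 4 per group. The number of arrays limits the precision, and p-values and SE rest on a spread pooled over all 16 arrays. The median SD of a gene was 0.380 in control and 0.257 in scoparia iWAT. In eWAT it was 0.287 in control and 0.172 in scoparia fat.

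Animal numbers are alike in both depots. Deviations of an animal's arrays from their group means correlated at −0.207 to 0.315 between depots, so the block by animal is given for the difference between depots. Named genes were, per direction, the 12 called genes with the widest gap between the groups and the 12 with the smallest p among those without overlap, up to 4 members of each list or family by p and every called member, and 4 adipocyte markers. The members and lists were chosen with earlier results of these data known. The fit was tested on simulated data. Alternatives were other scalings, filters, offsets, spreads and blocks, and leaving out arrays, and 2 of these (without control arrays 1 and 4, and without 2 and 3) were chosen after seeing the data.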

Additional observations from a re-analysis of the deposited data

Results flagged for a closer look

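Among the genes described above, 6 of 246 groups of 4 arrays held an array far from the other 3 by Dixon's criterion at 95%, where chance flags about 1 group in 20. Tst stood at 7.59 on scoparia array 1, against 6.89 to 6.97 on the other scoparia arrays. Snx21 stood at 7.55 on scoparia array 2, against 7.47 to 7.48 on the others, a narrow range. Ddx3y stood at 12.1 on scoparia array 4, against 11.4 to 11.5 on the others. Kcnn1 stood at 5.005 and Tiparp at 4.65 on scoparia array 4, below 5.36 to 5.44 and 5.38 to 5.43 on the others. Aldh3a1 stood at 6.34 on control array 2, against 5.08 to 5.13 on the other control arrays, and 1 of the 4 control arrays detected it.

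The scoparia effect differed between inguinal and epididymal fat, by a test of the difference in limma, for Gsc (−1.90, adjusted p = 0.0408), Mindy2 (2.23, adjusted p = 0.0408), Bbx (2.02, adjusted p = 0.0273), Larp4b (1.94, adjusted p = 0.0408), Reep3 (2.07, adjusted p = 0.0408) and the predicted transcript 2410005O16RIK (1.58, adjusted p = 0.00789). These are inguinal minus epididymal log2 changes.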

How the results depend on the processing

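The count of 972 genes was 0 with the 8 inguinal arrays alone, 1896 with equal medians, 2154 with array weights, 4 without control arrays 1 and 4, and 4978 without control arrays 2 and 3. The count of 6 for the difference between depots was 17 with equal medians and with the mean of probes, 11 with an offset of 50, 13 with the authors' normalized values, 626 with array weights, 48 with the animal as a random block, 2870 without control arrays 2 and 3, 3 with no filter, 2 with trend and robust, and 1 without control arrays 1 and 4. Leaving out 1 array of the 16 gave 0 to 3050 and 1 to 428 genes. The inguinal count stayed within 1.5 times under the other 8 alternatives that kept all arrays, the blocks included (736 to 1240). With the replicate number as a block, it was 780, and 2 for the difference. The replicate numbers share only a number, since same-numbered inguinal arrays correlated at −0.319 to 0.178 in their deviations and 1 of 4 correlated best with its own number. Of the 92 genes in the text that passed, 0 changed sign under any of the 29 alternatives, and 89 no longer passed without control arrays 1 and 4. The adipocyte markers Adipoq, Lep and Fabp4 had no settled sign, at −0.47, −0.33 and −0.24 with equal medians. Without control arrays 1 and 4 Adipoq and Fabp4 stood at −0.0328 and −0.30. For the Adipoq log2 change in iWAT leaving out 1 array gave −0.0252 to 0.0685, and for Fabp4 −0.19 to 0.21, and Snhg11 was −0.10 without control arrays 1 and 4. The Adam3 log2 change in iWAT was 0.75 without control arrays 2 and 3, and leaving out 1 array gave −0.73 to 0.0457. With equal medians the list medians turned negative for MHC class II genes (−0.06), cytosolic ribosomal proteins (−0.37) and endothelial genes (−0.24). The cause of these shifts was not tested. Signal near background limits Cbs, Aspm, Kif11, Esco2, Slc15a2, Tiparp, Aldh3a1, Mx1 and Agt to bounds or to few detecting arrays. It also affects others, such as Siglech, Gimap5, Ncapg2 and Rrm2, each detected on 2 of 4 inguinal control arrays. The transcript 2410005O16RIK was detected on 0 of them.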
